A study of Homo sapiens with 3 samples.

Results

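The data described here are the chromatin immunoprecipitation sequencing (ChIP-seq) peaks of XPB and XPD at 6 short genes for non-coding RNAs that RNA polymerase III transcribes: RN7SK, RMRP, RPPH1, RN7SL1, RN7SL2 and VTRNA1-1. A peak was taken as a member when its summit lay within 2 kb of the hg19 position chosen for the gene. This gave 6 of the 21555 XPB peaks and 5 of the 14570 XPD peaks, 11 in all. The cells were HT1080, an established human fibrosarcoma line, untreated as far as the labels say. The series has 1 ChIP with a rabbit polyclonal antibody against XPB, 1 ChIP with a rabbit polyclonal antibody against XPD and 1 input DNA library without enrichment, all made from a single pool of crosslinked chromatin. There are no replicates, so no value below has a replicate error and no test between antibodies was possible.

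XPB and XPD both unwind DNA as subunits of TFIIH, a general factor of RNA polymerase II transcription that also works in nucleotide excision repair. RNA polymerase III makes short, abundant RNAs from small genes. RN7SK, RMRP and RPPH1 have promoters that lie wholly upstream of the gene, with a TATA box and a distal element that often holds an octamer, and in this they resemble the promoters of small nuclear RNA genes that RNA polymerase II reads. The 7SL and vault RNA genes also use elements inside the transcribed part. TFIIH is not counted among the basal factors of RNA polymerase III, so the question put to the lists was whether the helicases were found at such genes at all.

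Sequence next to 3 of the genes is shown because the peaks cover these starts and because 2 of the stretches lie between an RNA polymerase III gene and a protein-coding gene. They are the promoter windows that RefSeq (GRCh38.p14) holds for the neighbouring gene, cut at that gene's start for PARP2 and CCDC107. The peak lists use hg19, and no position was converted between the builds. Capitals mark matches on either strand to the TATA core TATAA, to the octamer ATGCAAAT and to the pattern GCNNAGNGG, a part of the A box found inside many genes of RNA polymerase III.
RPPH1 to PARP2, chr14:20343385-20343634, plus strand: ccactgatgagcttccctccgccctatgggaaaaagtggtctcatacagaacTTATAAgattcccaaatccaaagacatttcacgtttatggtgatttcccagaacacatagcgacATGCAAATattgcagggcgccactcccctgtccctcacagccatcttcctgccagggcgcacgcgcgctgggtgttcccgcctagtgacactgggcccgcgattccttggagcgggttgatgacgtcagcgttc
RMRP to CCDC107, chr9:35658042-35658291, plus strand: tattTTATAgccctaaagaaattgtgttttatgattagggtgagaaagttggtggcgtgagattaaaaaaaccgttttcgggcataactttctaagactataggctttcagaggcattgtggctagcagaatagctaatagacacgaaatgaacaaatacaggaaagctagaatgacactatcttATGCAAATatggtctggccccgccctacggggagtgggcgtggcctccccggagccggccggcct
VTRNA1-1, chr5:140711026-140711325, plus strand: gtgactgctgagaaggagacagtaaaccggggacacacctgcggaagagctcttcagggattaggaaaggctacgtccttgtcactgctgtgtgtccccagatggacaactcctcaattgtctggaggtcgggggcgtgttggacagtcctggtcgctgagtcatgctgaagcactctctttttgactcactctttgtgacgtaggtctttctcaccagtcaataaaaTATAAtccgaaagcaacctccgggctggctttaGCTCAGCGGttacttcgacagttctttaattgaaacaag

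The first stretch starts with 27 bases of RPPH1, which runs toward lower coordinates, and ends where PARP2 begins in the other direction. In it a TATA core lay 26 to 30 bases upstream of RPPH1 on that gene's strand and another 27 to 31 bases upstream on the opposite strand, the 2 matches overlapping. The octamer lay 90 to 97 bases upstream of RPPH1. The second stretch is separated by 22 bases from RMRP, also a gene that runs toward lower coordinates. It holds a TATA core 27 to 31 bases and an octamer 208 to 215 bases upstream of RMRP. The third stretch is listed for LOC105378198, a long non-coding RNA gene that starts at the same base as VTRNA1-1. It holds a TATA core 18 to 22 bases upstream of VTRNA1-1, and the A box match lies among the first 50 transcribed bases. Of all 35116 RefSeq promoter windows of 250 bases, 18.9% held a TATA core and 1.63% the octamer. Of those cut at 300 bases, 20.4% held a TATA core and 29.1% the A box pattern. None of the 3 stretches held a G-quadruplex pattern (4 runs of GGG, or of CCC, with 1 to 7 bases between runs), which 23.3% of windows of 250 bases and 24.9% of those of 300 bases held. RN7SK, RN7SL1 and RN7SL2 are described without sequence.

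XPB peaks were found at all 6 genes and XPD peaks at 5, with VTRNA1-1 missing from the XPD list. As background, windows of 4 kb were tiled from the first to the last peak of each chromosome. Of these, 2.71% held an XPB summit, 1.86% an XPD summit and 0.755% both. The tiles cover all sequence and not only gene starts, and the share of other gene starts with a peak was not computed, for want of an hg19 annotation. Each gene had 1 peak per list at most within 2 kb, and all 11 peaks covered the gene's own position. Summits lay 23 to 241 bp from that position for XPB (median 77.5, n = 6) and 5 to 227 bp for XPD (median 50, n = 5). Just outside the limit was 1 XPB summit of 12 fragments, 2058 bp from RN7SL1. The sequenced fragments were 400 to 700 bp long, per the labels, so distances of this size are close to the resolution of the assay. All 11 member summits lay nearer to the gene's position than 1 fragment length. The side of a gene start on which a summit lies is therefore not firmly given.

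**Figure D1:**
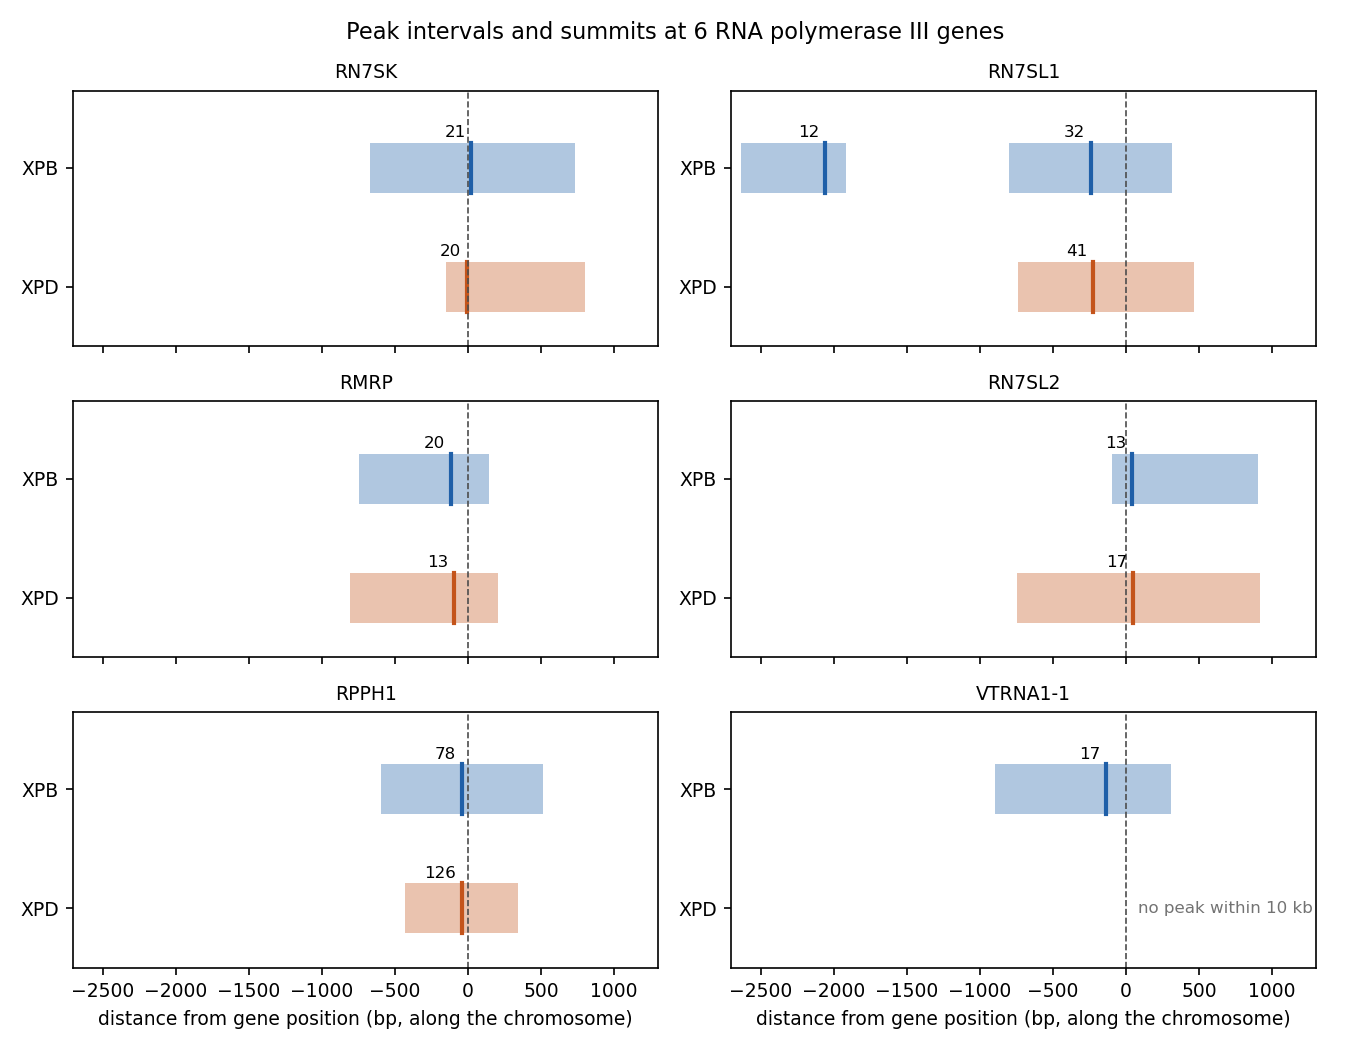
Peak intervals (bars) and summits (thick lines) of XPB, upper row, and XPD, lower row, against the distance in bp from the position of each of the 6 genes (dashed line), counted along the chromosome; numbers are summit heights in fragments. All 11 peaks at the genes cross the dashed line, the second XPB bar at RN7SL1 lies beyond 2 kb at its summit, and the XPD row of VTRNA1-1 is empty.

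Heights are given in fragments piled up at the summit, not scaled to library depth, and the score is a -log10 p-value multiplied by 10; both are the authors' values. Heights of the members ranged from 13 to 78 fragments for XPB (median 20.5) and from 13 to 126 for XPD (median 20). The medians of the whole lists were 11 for XPB and 13 for XPD. A peak was placed in the top decile when at most 10% of its list was as tall. By height, 4 of 6 XPB members were in it, where 8.1% of all XPB peaks were, and 3 of 5 XPD members, where 8.74% of all XPD peaks were. By score, 6 of 6 XPB members were in the top decile and 3 of 5 XPD members, against 10% of each list by construction. Read numbers are not given in the files, so each height and score is set against its own list.

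RPPH1 encodes H1 RNA, the catalytic RNA of RNase P, which trims the leader from transfer RNA precursors. It had the tallest peak of the 6 genes in both lists. The XPB peak on chromosome 14 spanned 20810977 to 20812084, reached 78 fragments at its summit and scored 1737.09. The XPD peak spanned 20811136 to 20811914, reached 126 fragments and scored 2683.81. These ranked 39 by height and 38 by score among XPB peaks, and 15 by height and 10 by score among XPD peaks. The summits were at 20811529 for XPB and 20811527 for XPD, 2 bp apart, and lay 41 and 43 bp from the gene's position, on the transcribed side of its start. The peaks also spread over the region shared with PARP2, the gene of a poly(ADP-ribose) polymerase that acts in DNA repair and that RNA polymerase II transcribes. With the first stretch above being this short, signal that belongs to RPPH1 and signal that belongs to PARP2 cannot be told apart.

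RMRP encodes the RNA of RNase MRP, which takes part in ribosomal RNA processing. Its peaks on chromosome 9 ran from 35657272 to 35658160 for XPB and from 35657206 to 35658218 for XPD. The summit heights were 20 fragments for XPB and 13 for XPD. Only 1.92% of XPB peaks scored as high as the XPB peak (score 634.33, rank 413), and 19.2% of XPD peaks scored as high as the XPD peak (252.25, rank 2793). By height the XPD peak was ordinary for its list, since 53.1% of XPD peaks were as tall. The summits, at 35657901 and 35657921, lay 114 bp and 94 bp from the gene's position, by coordinate again inside the gene, which is 270 bases long. The gene is shorter than the fragments, so a place inside it is not firmly given. On the upstream side the XPB peak ended 145 bp and the XPD peak 203 bp from the gene's position. The octamer of the second stretch was counted at 208 to 215 bases upstream, beyond both ends by these numbers. For both peaks the margin is smaller than a fragment, and no position was converted between builds. Whether the octamer lies outside the signal is therefore not firmly given. CCDC107, a protein-coding gene, begins on the far side of the second stretch, farther out than the octamer, and its part in the peaks was not tested.

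RN7SK encodes 7SK RNA, which holds the elongation factor P-TEFb inactive and so restrains RNA polymerase II. The XPB peak on chromosome 6 ran from 52859750 to 52861152 with 21 fragments at its summit, and the XPD peak from 52860265 to 52861217 with 20. The summits lay 23 bp and 5 bp from the gene's position, the closest of the 6 genes in each list. The heights were alike in place, with 5.37% of XPB peaks and 8.74% of XPD peaks as tall. The scores were not: 437.91 put the XPB peak at rank 1072 (4.97% of the list as high), and 208.77 put the XPD peak at rank 4921 (33.8% as high). The XPB interval reached 668 bp to the lower side of the gene's position and the XPD interval 153 bp. These were also isolated peaks. The next XPB summit was 155.8 kb away, and 6.98% of XPB summits were as far from the next of their list. The next XPD summit was 79.6 kb away, as far as for 20.2% of XPD summits.

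RN7SL1 and RN7SL2 encode 7SL RNA, the scaffold of the signal recognition particle. They are near-identical copies on chromosome 14, and 7SL and 7SK RNA both have many related sequences in the genome. How reads with several matching positions were treated is not given in the sources used here, so the heights at these genes are uncertain to that extent. At RN7SL1 the XPB peak ran from 50052497 to 50053612, reached 32 fragments and scored 701.81, and the XPD peak from 50052560 to 50053763 with 41 fragments and 745.04. After RPPH1 these were the tallest of the members, with 1.06% of XPB peaks and 0.830% of XPD peaks as tall. Both summits were displaced to the same side of the gene's position, by 241 bp for XPB and 227 bp for XPD. Measured from the positions chosen, this was the largest displacement of the members in each list. RPS29, a ribosomal protein gene, overlaps RN7SL1 in the RefSeq gene table, and its part in these peaks was not tested.

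At RN7SL2 the XPB peak ran from 50329176 to 50330172 with 13 fragments and the XPD peak from 50328526 to 50330191 with 17. These heights were common in their lists, since 35.8% of XPB peaks and 18.6% of XPD peaks were as tall. The scores were less common: 423.23 was reached by 5.48% of XPB peaks and 474.96 by 3.12% of XPD peaks. The XPD peak was the widest of the members, 1666 bp, and the XPB peak was 997 bp wide. The summits lay 40 bp and 50 bp from the gene's position. Which end of the gene, 299 bases long, that position marks was not checked. The distance to the start of RN7SL2 may therefore be larger, also in relation to RN7SL1. No protein-coding gene overlaps RN7SL2 in the RefSeq table, where a long non-coding RNA gene, LOC105378179, does. The part of LOC105378179 in these peaks was not tested.

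VTRNA1-1 encodes a vault RNA, a component of the large cytoplasmic vault particle. Its XPB peak spanned 140089966 to 140091171 of chromosome 5, with 17 fragments at a summit 135 bp upstream of the gene's position and a score of 353.48. Of the XPB list, 12.9% of peaks were as tall and 9.39% scored as high. The long non-coding RNA gene LOC105378198 overlaps VTRNA1-1 in the RefSeq gene table, and its part in this peak was not tested. No XPD summit lay within 10 kb, and the nearest was 14.9 kb away. An XPB peak of this strength without an XPD partner was not rare. Among the 2025 XPB peaks with at least this score, 369 overlapped no XPD peak (18.2%, exact 95% interval 16.6 to 19.97), and among the 583 with the same height 323 did not (55.4%, 51.3 to 59.5). Since the XPD list starts at a score of 150 and its depth is unknown, absence from it does not show that XPD was absent.

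**Figure D2:**
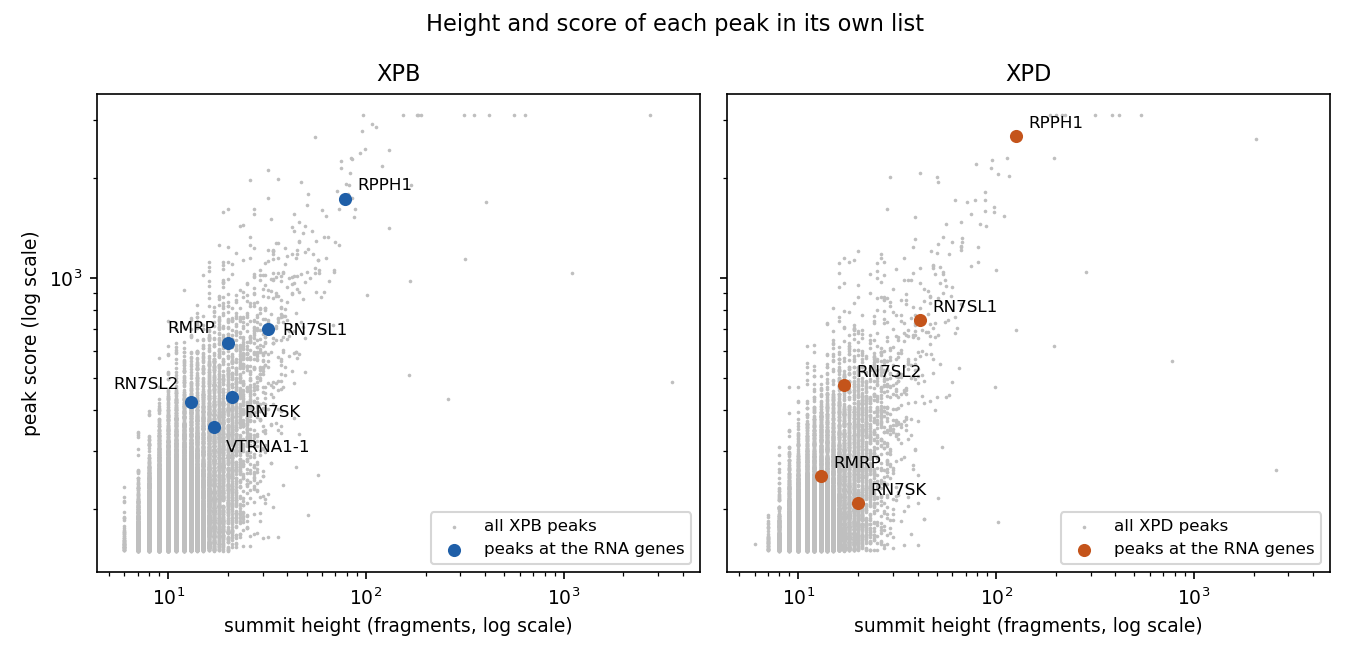
Peak score against summit height in fragments, both on log scales, for every XPB peak (left) and every XPD peak (right) in grey, with the peaks at the RNA genes in colour. RPPH1 is high on both axes in both lists (78 and 126 fragments), while RN7SL2 and the XPD peak of RMRP sit among the common heights.

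At the 5 genes in both lists the XPB and XPD intervals overlapped, so 5 of 6 XPB members and 5 of 5 XPD members had a partner, where 26.6% of all XPB peaks and 38.7% of all XPD peaks did. The XPB members score high, and of the 2025 XPB peaks that score at least as high as the lowest-scoring XPB member, 81.8% had a partner, close to the 5 of 6 seen here. The XPD members were more mixed, with 33.8% of XPD peaks scoring as high as that of RN7SK and 19.2% as high as that of RMRP. A share of XPD peaks with a partner at like score was not computed. The overlap took in 63.3 to 100% of the XPB peak and 59.8 to 100% of the XPD peak. The summits of a pair were 28 bp apart at RN7SK, 20 bp at RMRP, 2 bp at RPPH1, 14 bp at RN7SL1 and 10 bp at RN7SL2, with a median of 14 bp. Across all 5536 pairs of XPB and XPD peaks, each the best overlap of the other, the median was 97.5 bp (interquartile range 26 to 324), and 26.7% were 28 bp apart or closer. That limit is the widest of the 5 and was read from the data. Summit distances were not compared with those of pairs of like height or score.

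The height ratios of these pairs were spread to both sides of the ratio usual for the libraries. The median log2 of XPB over XPD height over all 5536 pairs was -0.11 (interquartile range -0.38 to 0.19). Relative to it, the log2 ratio was 0.73 at RMRP (exact 95% counting interval -0.35 to 1.86) and 0.18 at RN7SK (-0.78 to 1.14). It was -0.25 at RN7SL1 (-0.96 to 0.45) and -0.28 at RN7SL2 (-1.44 to 0.85). These 4 intervals include 0, so the heights at those genes did not depart from the usual ratio beyond counting error, although the intervals are wide. At RPPH1 the log2 ratio was -0.58 (-1.01 to -0.17), which means an XPB summit lower in relation to XPD than in most pairs: 7.79% of all pairs had a ratio as low. By the same measure RMRP lay farther out on the other side, with a ratio as high in 5.00% of all pairs, although its interval included the median. RPPH1 was the only 1 of the 5 genes whose interval left out the median ratio, and 2.04% of all pairs had such an interval. Those on the same side as RPPH1 made up 0.596% of all pairs. Low summits have wide intervals, so those shares are held down by the many low pairs. Of the 57 pairs in which each summit reached 50 fragments, a limit chosen after the values were seen, RPPH1 had the lowest ratio of XPB to XPD height. That limit leaves out pairs with a tall XPD summit and an XPB summit under 50 fragments, which could have lower ratios. The rank among the 57 pairs is therefore partly set by the limit. The intervals cover counting error only, since PCR copies are not independent molecules, and variation between libraries was not measured.

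**Figure D3:**
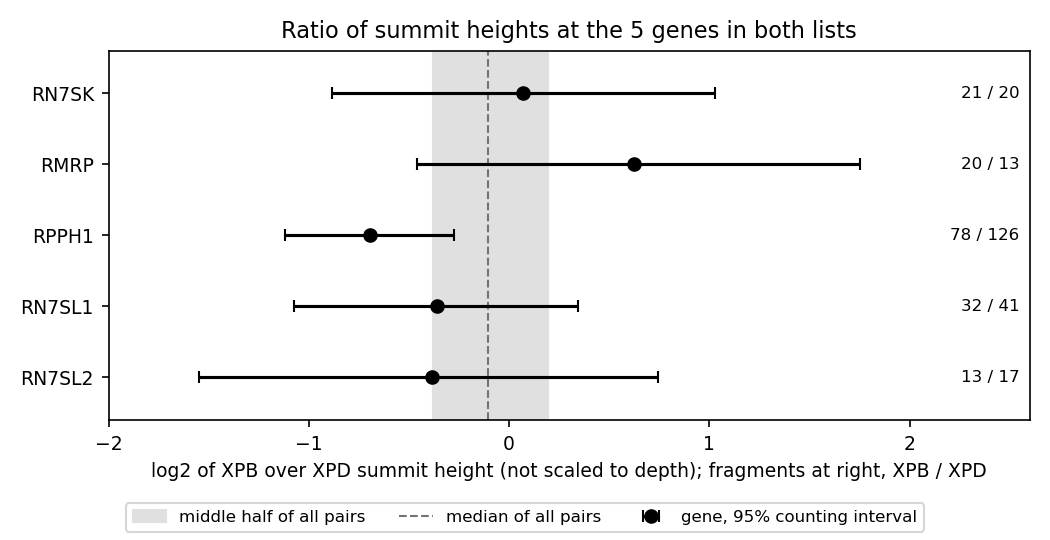
Log2 of XPB over XPD summit height, not scaled to depth, at the 5 genes with peaks in both lists (points) with exact 95% counting intervals (bars), beside the median (dashed line) and interquartile range (grey band) of all 5536 pairs; the fragments behind each point stand at the right, XPB before XPD. The interval of RPPH1 alone (78 and 126 fragments) lies wholly below the dashed line.

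The surroundings of the genes differed in how many other peaks they held. Within 100 kb of the gene's position, its own peak included, RN7SK had 1 XPB and 2 XPD summits, and VTRNA1-1 had 7 XPB and 6 XPD summits. RMRP had 4 and 4, RPPH1 4 and 3, RN7SL1 3 and 2, and RN7SL2 6 and 3. Over all peaks, the median number of other summits of the same list within 100 kb was 4 for XPB and 3 for XPD. At RPPH1 and RN7SL1 every other summit in this range was lower than the one at the gene, in both lists, and so was the only other XPD summit near RN7SK; no other XPB summit lay near RN7SK. At RMRP an XPB summit 70.4 kb away reached 21 fragments, against 20 at the gene, and an XPD summit 74.9 kb away reached 14, against 13. Near RN7SL2 an XPB summit reached 15, against 13 at the gene, and an XPD summit equalled the 17 at the gene. Near VTRNA1-1 an XPB summit equalled the 17 at the gene.

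**Figure D4:**
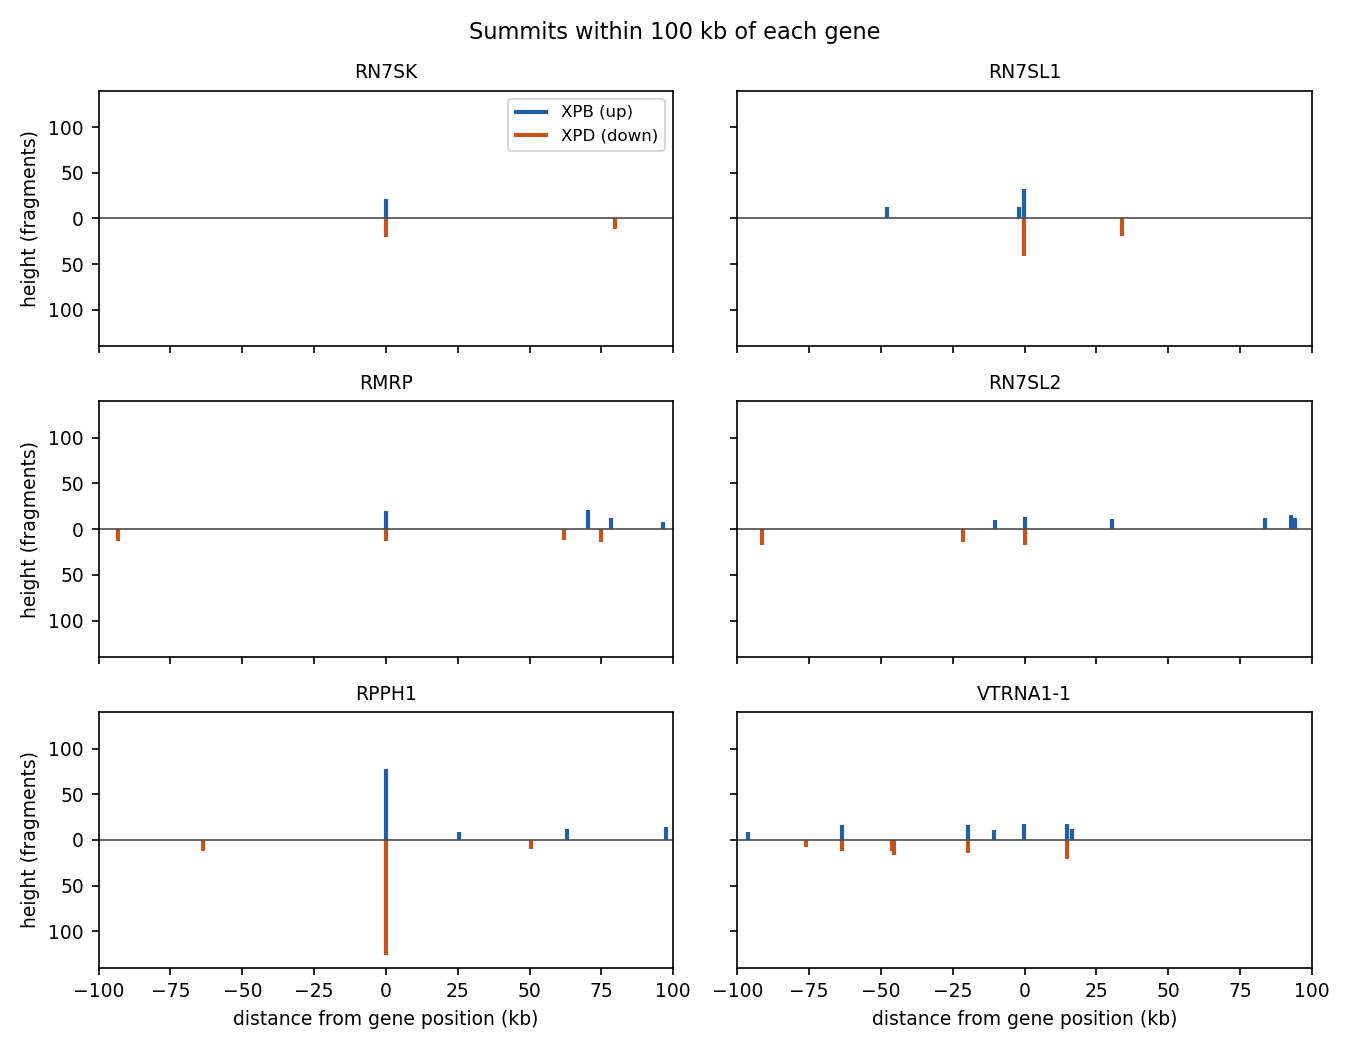
Summit heights in fragments, XPB drawn upward and XPD downward, against the distance in kb from each of the 6 genes. RPPH1 stands above its surroundings in both lists (78 and 126 fragments), RN7SK has a single XPB summit in the range, and the summits within 100 kb of VTRNA1-1 range from 9 to 17 fragments for XPB and from 8 to 21 for XPD.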

How the data were processed

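ChIP-seq was measured in 2 libraries of HT1080 cells, with 1 input library whose peaks were not analysed here. Groups were taken from each sample's antibody field; the protocol text common to the samples names another protein, CSB. Reads were aligned to hg19 with Bowtie 0.12.7 and MACS 1.4 called the peaks (both from the submitters' processing notes); the control and the caller's settings are not given in the sources used here. The deposited peak score and the deposited summit signal (fragment pileup) follow the usual MACS layout, which was assumed. Depth per library is unknown.

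The 6 gene positions were given with the member rule, and the members, lists and alternatives were chosen with earlier results of these data known. All 6 genes are named. Other RNA polymerase III genes were to be counted if an hg19 annotation was at hand, and are not analysed here. Distances run along the chromosome, and which end of RN7SL2 its position marks was not checked. RefSeq (GRCh38.p14) gave sequences and neighbours; all 6 genes matched by symbol, and none has a promoter entry of its own. Shares and ratios carry Clopper-Pearson intervals. Overlap means at least 1 bp. The pairing function was tested with partners that were copies of peaks in the XPB list, so partial overlaps were not tested. The tiling and ratio functions were tested on made-up values. Python 3.11.15, numpy 2.4.6, pandas 2.3.3, scipy 1.17.1 and matplotlib 3.10.9 were used.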

Additional observations from a re-analysis of the deposited data

How the results depend on the processing

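Of 55 alternative values, 50 stayed within 1.5 times the reported count or within the counting interval of the reported value, 5 moved and 0 changed direction. Some of the 55 repeat another value or could not differ by construction, and the counting intervals are wide. The tally is therefore not a measure of stability. XPB summits at 6 genes and XPD summits at 5 were also found with limits of 500 bp, 1, 5 and 10 kb, with the peak interval covering the gene's position, and at scores of at least 200. At scores of at least 300 the XPB count was again 6, and 3 genes had an XPD summit and 3 had both, because the XPD peaks of RN7SK and RMRP score under 300; the share of 4 kb windows was then 0.400% for XPB and 0.226% for XPD. Of the 11 members, 7 were in the top decile by height, and 4 were when only peaks that overlap the other list were ranked. The XPB peak of VTRNA1-1 overlaps no XPD peak and so has no place in that second ranking. By the definition used, at most 10% of the ranked peaks can be in a top decile, and their exact share is not given here. The interval of RPPH1 left out the median ratio of pairs on its own chromosome (-0.54, -0.97 to -0.12) and left out 0 with no adjustment (-0.69, -1.12 to -0.27). Pairs of at least 20 fragments had a median of 0, so they give the unadjusted value again, and taking the nearest summit changes nothing by construction. No paired analysis was possible because each antibody has 1 library. Unknown depth, the floor at a score of 150 and the missing share of other gene starts limit what presence and absence show.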

Other observations

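VTRNA1-1 is the first of 3 vault RNA genes that follow each other on chromosome 5, with VTRNA1-2 next to it in the RefSeq table. The XPD summit nearest to VTRNA1-1 was at 140105777 with 21 fragments, and it had an XPB partner at 140105786 with 17, 9 bp away. Their scores, 173.75 for XPB and 166.08 for XPD, were below the medians of their lists, 189.4 and 185.1. Scores were not compared among peaks of like height. The positions of the other vault RNA genes were not known in hg19, so this pair was assigned to no gene.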
